A study of Mus musculus with 18 samples.

Results

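The genes described here encode the proteasome and the enzymes that attach ubiquitin to proteins or remove it. They were taken as every gene probe whose symbol in the array's own description begins with Psm and a letter from a to g, or with Ube1, Ube2, Ube3, Uba and a digit, or Usp and a digit, and the brightest probe stood for each gene. This gave 56 of the 5813 genes with a symbol, 27 of the proteasome and 29 ubiquitin genes, from 105 of 15247 gene probes. Expression was measured on spotted mouse cDNA arrays in embryoid bodies made from i-Mixl1 mouse embryonic stem cells, which the labels give as a cell type and not as a number of clones. The bodies grew with doxycycline (DOX), added at 0.1 ug/ml 1 day after plating, or without it, and were harvested for RNA at day 2, day 3 or day 4. Each of the 6 groups had 3 samples that the labels call biological replicates, and the 9 arrays each paired a DOX-treated with an untreated sample, matched by day and replicate number.

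The proteasome is a barrel-shaped protease that degrades proteins marked with ubiquitin. Its core is built of outer rings of alpha subunits and inner rings of beta subunits, some of which cut peptide bonds, and a regulatory cap with a ring of ATPases recognises, unfolds and feeds in the substrate. Ubiquitin is first activated by an E1 enzyme, passed to an E2 conjugating enzyme and placed on a substrate with the help of an E3 ligase, and deubiquitinases, among them the Usp family, take it off again. In embryonic stem cells this system sets the lifetime of cell cycle proteins and transcription factors and also edits the ubiquitin on histones.

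A ratio divides the red signal of a spot by its green signal, and "higher" means higher in the red. The deposited value table puts the DOX sample in the red channel, whereas the dyes named in the labels would put it in the green, so the direction with respect to DOX is not settled. Every array ran the same way, so dye and treatment cannot be told apart within a day, while a constant dye effect of a probe drops out of a change between days. Values after ± are standard errors from a limma fit over 3 arrays a day, and a gene was called at a Benjamini-Hochberg adjusted p under 0.05 over all gene probes. A lower signal in such bulk samples may reflect fewer cells of a type or less RNA per cell, and these cannot be told apart. No probe was named Mixl1, so the induced gene was not analysed here.

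The samples had median intensities between 209 and 491, and in each of them 51 to 55 of the 56 genes passed a signal-to-noise ratio of 1.4. Arrays of the same day correlated over all probes (log2 ratios, r from 0.52 to 0.73), and probes are not independent replicates. Of 6 markers of embryonic stem cells 3 were measured (Pou5f1, Zfp42 and Dppa5a). Their summed signal was 23639 to 25072 (red) and 24297 to 24835 (green) at day 2. At day 4 it was 2546 to 4829 (red) and 4980 to 7229 (green). Zfp42 and Dppa5a were then called higher (log2 ratios of 0.49 and 0.74) and Pou5f1 lower (-1.90). Zfp42 was not well above background in the green channel at day 4. Markers of other cell types differed between the channels with time. The sum of 4 mesoderm markers was 3525 to 4736 (red) and 1850 to 3193 (green) at day 3, with 3 called higher, then 2426 to 3216 (red) and 5466 to 6874 (green) at day 4, with 3 called lower. On no day was T well above background, and at day 3 neither was Pdgfra. Most of the day 3 sum was the signal of Eomes (log2 11.97, 11.92 and 11.45 in the red, 11.44, 10.77 and 10.49 in the green). At day 4 all 3 hematopoietic markers were called higher, with sums of 732 to 1268 (red) and 350 to 417 (green) and Hbb-y not well above background in the green channel. Both measured visceral endoderm markers were called higher at day 4 (sums of 1148 to 1758 and 588 to 701) and both trophoblast markers at day 3 (1183 to 1427 and 595 to 742, with Hand1 not well above background in the green channel). At day 4 the trophoblast markers split, with Hand1 called higher (0.64, adjusted p = 0.0055) and Tfap2c lower (-0.73, adjusted p = 8.42e-05). The 1 measured fibroblast marker, Col1a2, was called higher at day 2 (0.63, adjusted p = 0.0029) and not at day 3 or day 4. At day 2 the mesoderm marker Eomes was also called higher (0.97, adjusted p = 3.41e-05). The part of these cell types in the ratios below was not tested.

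The proteasome genes stayed close to a ratio of 1 on all days. None of the 27 was called at day 2 or day 3 and 1 was called at day 4, where 3.47%, 22.4% and 20.2% of the brightest probes of all genes were called at day 2, day 3 and day 4. At an unadjusted p under 0.05 the counts were 1, 3 and 6 of 27, where 16.4%, 35.8% and 34.4% of the brightest probes passed. The median log2 ratio of the proteasome genes was 0.023 at day 2, 0.088 at day 3 and 0.043 at day 4, and the single values ran from -0.18 to 0.17, from -0.16 to 0.26 and from -0.18 to 0.34. With median centring in place of the loess these medians were -0.020, 0.011 and -0.0055, so that the sign at day 2 and day 4 depended on the scaling. The 95% confidence interval of the log2 ratio lay within 0.5 either side of 0, a 1.41-fold difference, for 27, 27 and 26 of the 27 genes at day 2, day 3 and day 4. Among the brightest probes of all genes the same held for 93.7%, 81.1% and 83.1%.

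**Figure D1:**
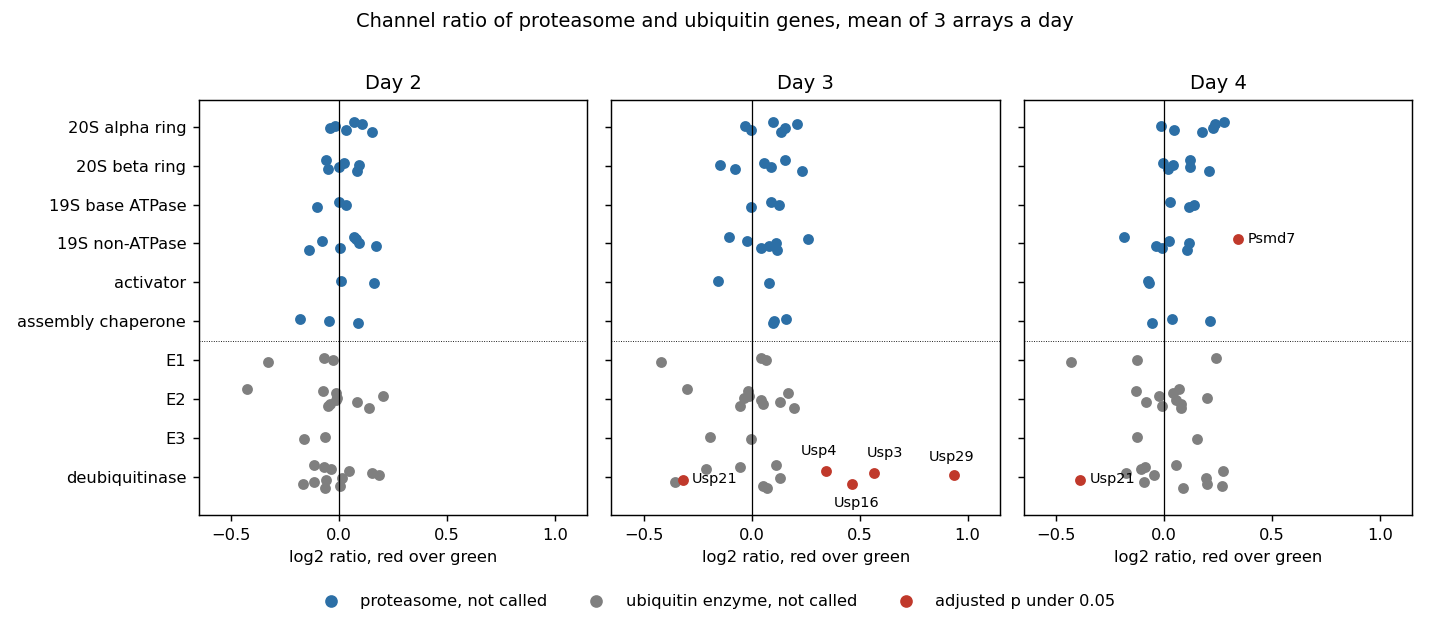
Mean log2 ratio of the red over the green channel (horizontal axis) of the reported genes by day, grouped by role on the vertical axis, with proteasome genes in blue above the dotted line, ubiquitin genes in grey below it and called genes in red. The proteasome genes lie between -0.18 and 0.34 on all days, and the called genes at day 3 are all deubiquitinases.

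The alpha ring of the core was measured through 6 subunits, and none passed. At day 4 their log2 ratios ran from -0.013 to 0.28, and 4 of the 6, Psma2, Psma4, Psma6 and Psma7, had an unadjusted p under 0.05, which 34.4% of the brightest probes of all genes also had, with adjusted p between 0.053 and 0.162. Psma4 gave 0.19, 0.34 and 0.16 on the 3 day 4 arrays, and Psma7 gave 0.02, 0.55 and 0.25. All arrays of these genes were above 0 at day 4 for Psma2, Psma4 and Psma7, and Psma6 was above 0 on replicates 1 and 3 (0.36 and 0.39) but not on replicate 2 (-0.05).

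The beta ring was also measured through 6 subunits, including Psmb5, Psmb6 and Psmb7, which carry the active sites. Their ratios ran from -0.062 to 0.090 at day 2, from -0.14 to 0.23 at day 3 and from -0.0053 to 0.21 at day 4, and none passed. Psmb5, with the chymotrypsin-like site, had a ratio of 0.090 ± 0.087 at day 2, -0.14 ± 0.087 at day 3 and 0.042 ± 0.087 at day 4. No immunoproteasome subunit had a probe that met the naming rule.

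In the cap, the ATPases Psmc1, Psmc3 and Psmc5, which unfold the substrate, ran from -0.10 to 0.14 over the 3 days. The 7 non-ATPase subunits of the cap included the called gene, Psmd7, the partner of the cap's own deubiquitinase. Psmd7 gave log2 ratios of 0.15, 0.57 and 0.30 on the 3 arrays of day 4, all above 0, after 0.25, -0.03 and 0.01 at day 2 and, a day later, 0.32, 0.31 and 0.14. The mean at day 4 was a 1.27-fold higher red signal (log2 0.34 ± 0.092, adjusted p = 0.018). Without replicate 2 the ratio was 0.23 (adjusted p = 0.229), and without replicate 3 it was 0.36 and not called (0.087). The call was also lost after plain background subtraction, with a ratio of 0.35 (0.065), and after subtraction of each print block's median (0.054, log2 0.21), the median of its block being 0.13 at day 4. A dimmer probe of Psmd7 had a ratio of -0.17 at day 4, and the mean of both probes was not called (0.087, adjusted p = 0.547). The change of the brightest probe's ratio from day 2 to day 4 did not pass (0.26 ± 0.13, adjusted p = 0.271).

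The other cap subunits that met the naming rule did not pass. Psmc6 and Psmd6, which fit the rule only by their current symbol and are described at the end, were called higher at day 4. Psmd4, a ubiquitin receptor, had ratios of -0.081, -0.023 and 0.024 at day 2, day 3 and day 4. Psmd8 had the lowest value of the class at day 4 (-0.18 ± 0.087, adjusted p = 0.163). Dimmer probes of 3 proteasome genes were called while the brightest were not. These included Psmd12 at day 3 (0.26, against 0.12 for the brightest) and Psma3 at day 2 (-0.36, against 0.031). The other was Psmd2 at day 4 (the dimmest of 3, -0.53, against -0.037). Over all gene probes, 503 of 15246 were called at day 2, 3070 of 15247 at day 3 and 2656 of 15243 at day 4. The activators Psme1 and Psme3, which open the core without ATP, ran from -0.16 to 0.16, and the assembly chaperones Psmd5, Psmd9 and Psmd10 from -0.18 to 0.21, and none passed. The clones of Psmb3, Psme1 and Psmd5 are noted as giving several PCR bands and that of Psmd9 as questionable.

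Among the ubiquitin genes, the calls lay in the deubiquitinases. None of the 29 was called at day 2, where 1.67% and 1.81% of the brightest probes of all genes were called higher and lower. At day 3, 4 were higher and 1 was lower, where 10.4% and 12% were. At day 4, 1 was lower and none was higher, where 9.98% and 10.3% were. The counts at an unadjusted p under 0.05 were 3, 12 and 9 of 29, where 16.4%, 35.8% and 34.4% of all passed, so those at day 3 and day 4 were near the background. All 5 genes called at day 3 were among the 12 Usp genes, and the E1, E2 and E3 genes that met the naming rule had none. Genes that fit the rule only by their current symbol, described at the end, did include E2 genes called at day 3. Whether the deubiquitinases differed from the other classes was not tested, and no count is read as particular to them.

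Usp29 had the largest ratio. It encodes a ubiquitin protease and lies in the imprinted Peg3 domain, from which it is expressed from the paternal copy. Its log2 ratio was 0.10, 0.11 and 0.35 on the day 2 arrays, 0.56, 1.35 and 0.90 on the day 3 arrays and -0.16, 0.01 and 0.01 on the day 4 arrays. The day 3 arrays lay above all others. The red signal was 1.92-fold higher at day 3 (0.94 ± 0.12, adjusted p = 3.41e-05), although the log2 ratio was 1.67 with plain background subtraction and 1.38 with the authors' scaled values, both called. With normexp and loess no difference was detected at day 4 (-0.049 ± 0.12, adjusted p = 0.815). The rise of the ratio from day 2 to day 3 was 0.75 ± 0.16 (adjusted p = 0.018), and it then fell by 0.99 ± 0.16 to day 4 (adjusted p = 9.47e-04). Without replicate 2, which had the highest day 3 value, the rise did not pass (0.51, adjusted p = 0.290), and the fall did. The rise was larger but not called with plain subtraction (1.17, adjusted p = 0.065) and with the authors' scaled values (0.97, 0.060), where the fall was -1.72 and -1.51, both called. In each channel 1 of 3 arrays passed the signal-to-noise limit at day 2, 2 of 3 at day 3 and 3 of 3 at day 4, so its low values are near background.

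Usp3, which removes ubiquitin from histones and has a role in genome stability, also had its highest ratio at day 3. Its log2 ratio was 0.16, 0.20 and 0.10 at day 2, 0.42, 0.69 and 0.58 at day 3, then -0.23, -0.17 and -0.13 at day 4. The 3 days did not overlap. The red signal was 1.48-fold higher at day 3 (0.57 ± 0.078, adjusted p = 1.08e-04), and the ratio fell by 0.74 ± 0.11 from day 3 to day 4 (adjusted p = 3.71e-04). The rise from day 2 to day 3, 0.41 ± 0.11, did not pass (adjusted p = 0.054). The other Usp3 probe, from a clone noted as giving no PCR product, had ratios of 0.51, 0.86 and 0.48 on the day 3 arrays, a mean of 0.62 (adjusted p = 2.95e-04), a rise of 0.53 from day 2 (adjusted p = 0.045) and a fall of 0.68 to day 4 (adjusted p = 0.0043).

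Usp16, another histone deubiquitinase, had ratios of -0.30, -0.10 and -0.10 at day 2, 0.38, 0.54 and 0.47 at day 3, then 0.14, 0.27 and 0.18 at day 4. All arrays were below 0 at day 2 and above 0 afterwards. The red signal was 1.38-fold higher at day 3 (0.47 ± 0.078, adjusted p = 6.52e-04), and the rise from day 2 was 0.63 ± 0.11 (adjusted p = 0.0046). The day 4 ratio (0.20 ± 0.078, adjusted p = 0.094) and the change from day 3 to day 4 (-0.27 ± 0.11, adjusted p = 0.214) did not pass. The rise was not called without replicate 2 (0.63, adjusted p = 0.116). Its other probe never rose well above background, and with the mean of both probes the day 3 ratio was 0.28 (adjusted p = 0.022) and the rise 0.34 (0.106).

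**Figure D2:**
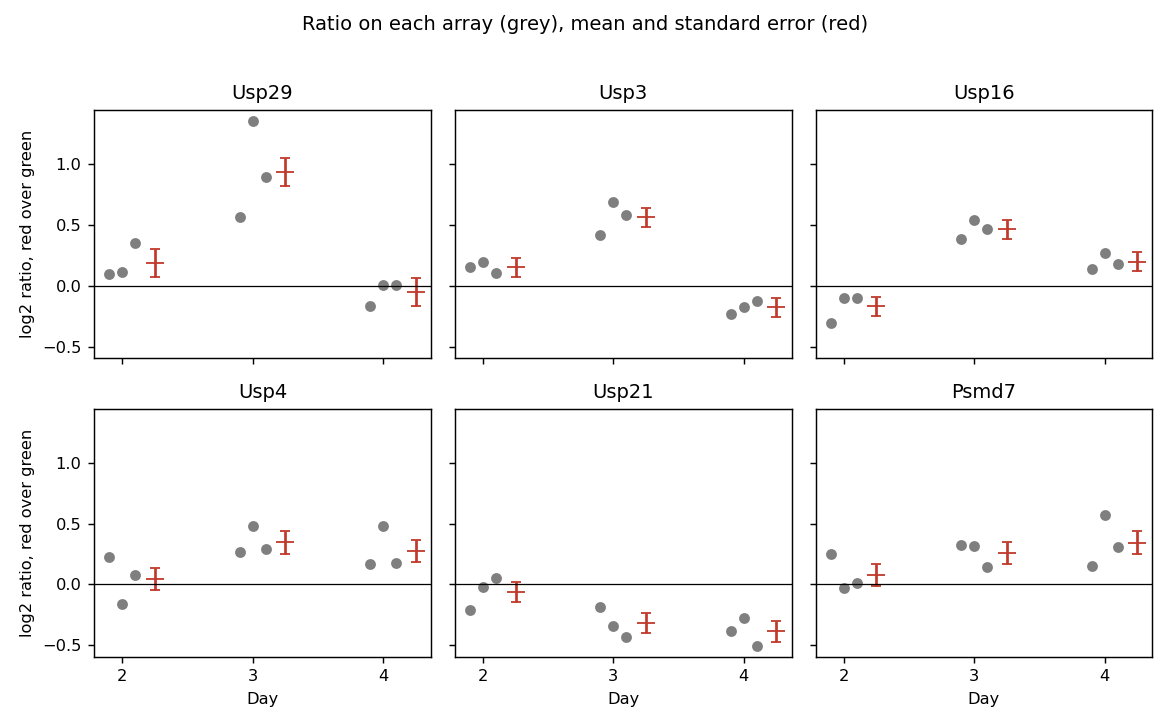
Log2 ratio of the red over the green channel (vertical axis) of the 6 called genes on each array by day (grey points, in the order of replicates 1 to 3), with the mean of 3 arrays and its standard error in red. Usp29 and Usp3 are highest at day 3 and near or below 0 at day 4, whereas Usp21 is below 0 on all arrays of day 3 and day 4.

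Usp4 and Usp21 changed less. Usp4, known to remove ubiquitin from a TGF-beta receptor in human cells, had ratios of 0.27, 0.48 and 0.29 at day 3, then 0.17, 0.48 and 0.17 at day 4, all above 0. In each channel 2 of 3 arrays passed the signal-to-noise limit for Usp4 at day 2 and at day 4, and 3 of 3 at day 3. The red signal was 1.27-fold higher at day 3 (0.35 ± 0.093, adjusted p = 0.017), and the day 4 value did not pass (0.27 ± 0.093, adjusted p = 0.055). The median of its print block was 0.14 at day 3, and after that median was subtracted its ratio was 0.21 (adjusted p = 0.066). The call was also lost without replicate 2 (0.28, adjusted p = 0.116). Without replicate 3 (0.37, 0.0503) and after plain background subtraction (0.37, 0.066) it was not called at ratios slightly above the first.

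Usp21, a deubiquitinase that stabilises the pluripotency factor Nanog in mouse embryonic stem cells, was the one gene called on 2 days. Its ratios were -0.21, -0.02 and 0.05 at day 2, -0.19, -0.34 and -0.43 at day 3, then -0.38, -0.28 and -0.50 at day 4. All arrays of day 3 and day 4 were below 0. The red signal was 1.25-fold lower at day 3 (-0.32 ± 0.084, adjusted p = 0.015) and 1.31-fold lower at day 4 (-0.39 ± 0.084, adjusted p = 0.0048), and the change from day 2 to day 4 did not pass (-0.32 ± 0.12, adjusted p = 0.128). The day 3 call was lost without replicate 2 (-0.31, adjusted p = 0.123) or replicate 3 (-0.26, 0.118), and the day 4 call without replicate 3 (-0.33, 0.088).

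Of the other 7 deubiquitinases none was called on any day. Usp14, which works on the proteasome's cap, had ratios of -0.066, 0.073 and 0.088 at day 2, day 3 and day 4, and its other probe never rose well above background. Usp5, which takes apart free ubiquitin chains, had -0.21 ± 0.079 at day 3 (adjusted p = 0.071). Usp2 had 0.07, -0.71 and -0.43 on the day 3 arrays, which overlap 0, and just missed the threshold (-0.36 ± 0.12, adjusted p = 0.051). At day 3 it passed the signal-to-noise limit on 1 of 3 arrays in the red channel and 2 of 3 in the green. In the authors' deposited table both Usp3 probes (folds of 1.56 and 1.67) and Usp29 (2.68) were marked up at day 3, and Usp2 and Ube1c (0.613 and 0.664) and dimmer probes of Ube2c and Ube2e1 (0.540 and 0.542) were marked down. The authors' ANOVA p was 0.038 and 0.113 for the Usp3 probes, 0.107 for Usp29 and between 0.053 and 0.60 for those marked down. These were 3 up and 4 down of 105 probes, where 304 up and 631 down were marked among all 15247 gene probes.

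The E1 genes were Ube1x (now Uba1), the main ubiquitin-activating enzyme, its Y-linked copy Ube1y1 (now Uba1y) and Ube1c (now Uba3), the catalytic part of the enzyme that activates NEDD8. Ube1x and Ube1y1 are near-identical copies that can share signal on cDNA probes, so their values are uncertain. None passed. Ube1c had the lowest ratio at day 3 and day 4 (-0.42 ± 0.16 and -0.43 ± 0.16), with single arrays from -0.12 to -0.72 and from -0.14 to -0.89. All of them were below 0 and adjusted p was 0.079 and 0.081.

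The 11 E2 genes had ratios from -0.43 to 0.20 at day 2 and from -0.30 to 0.20 at day 3, and none passed on any day. The lowest at day 2 and day 3 was Ube2v2, a variant without an active site that works with Ube2n, with -0.79, -0.19 and -0.30 at day 2 and 0.28, -0.20 and 0.13 at day 4. Its change from day 2 to day 4 was the largest increase of all 56 genes (0.49) and did not pass (adjusted p = 0.145). Ube2n had -0.076, -0.017 and -0.13 at day 2, day 3 and day 4.

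Ube2c, the E2 partner of the anaphase-promoting complex in mitosis, was spotted as 14 probes, which did not give 1 answer. The brightest had ratios of -0.051, -0.056 and -0.0093 at day 2, day 3 and day 4. Of the other 13, 12 were above 0 at day 2 and at day 3, with a median of 0.19 and 0.20, and 9 were above 0 at day 4 with a median of 0.020. At day 3, 3 of them were called higher and 1 lower, where 1394 and 1676 of all 15247 gene probes were. Of those 3, 1 was dim in both channels. The probe that was lower on all 3 days (-0.69, -0.58 and -0.80) lay in print block 21 and was not well above background in the red channel at day 2 and day 4. The median of that block was -0.049, -0.057 and -0.051 at day 2, day 3 and day 4. A value for Ube2c therefore depends on the probe chosen.

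**Figure D3:**
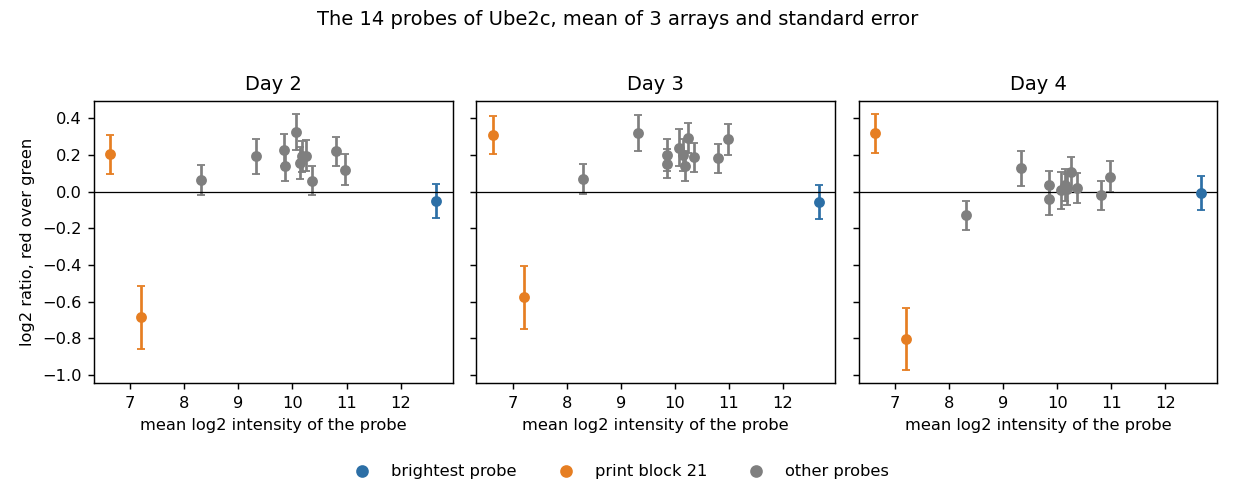
Log2 ratio of the red over the green channel (vertical axis, mean of 3 arrays with its standard error) against the mean log2 intensity (horizontal axis) of the 14 probes of Ube2c by day. The brightest probe (blue) stays between -0.056 and -0.0093 and most other probes (grey, or orange in print block 21) lie above 0 at day 2 and day 3.

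Dimmer probes of other enzymes differed from the brightest as well. For Ube2e1 the brightest probe gave 0.084 and 0.13 at day 2 and day 3 and the dimmer one -0.58 and -0.72, both called. For Ube1x the dimmer probe, in print block 21, was lower on all days (-0.53, -0.31 and -0.50) with all 3 called, and the brightest was not called on any. The numbers called over all gene probes are those given above for the dimmer proteasome probes. In the authors' deposited values a dimmer Ube2l3 probe had folds of 0.70, 0.62 and 0.52 at day 2, day 3 and day 4. It was marked down at day 4, while the other Ube2l3 probes had folds from 0.96 to 1.19 over the days. The E3 genes Ube3a, a ligase subject to imprinting in neurons, and Ube3b ran from -0.19 to 0.15, and neither was called.

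The ratio changed between days in few genes. From day 2 to day 3, 2 of 56 genes rose and none fell, where 4.44% of the brightest probes of all genes were called, 1.75% upward and 2.68% downward. From day 3 to day 4 none rose and 2 fell, where 8.78% were called, 5.09% upward and 3.68% downward. Between day 2 and day 4 limma called none, where 8.61% were (4.54% upward and 4.06% downward). At an unadjusted p under 0.05 these counts were 7, 3 and 8, where 19.5%, 20.1% and 23.1% of the brightest probes passed.

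The 4 called changes were those of Usp29, Usp16 and Usp3 given above. The other changes named here did not pass and are given as values. The highest from day 2 to day 3, after Usp3, were Psmd9 (0.34, adjusted p = 0.150) and Usp4 (0.30, 0.258). The lowest were Usp21 (-0.26), Usp2 (-0.24), Psmb5 (-0.24), Ube2h (-0.22, from a clone noted as giving no PCR product) and Psmd8 (-0.17). From day 3 to day 4 the lowest after Usp29, Usp3 and Usp16 were Ube2e1 (-0.22) and Ube1x (-0.19). The highest over that step were Ube2v2 (0.37, adjusted p = 0.344), Usp2 (0.26), Ube2g2, an E2 of degradation at the endoplasmic reticulum (0.23), Usp15 (0.22) and Ube1y1 (0.19). From day 2 to day 4 the highest after Ube2v2 were Usp16 (0.37, adjusted p = 0.063), Ube3a (0.32), Ube1y1 (0.31) and Psma4 (0.27), and the lowest were Usp3 (-0.33, 0.093), Usp21, Psmd8 (-0.25), Usp29 (-0.24) and Psme1 (-0.23).

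The level within a channel, and so within 1 dye, was then followed over days. From day 2 to day 4, 2 of 56 genes rose and 1 fell in each channel, where 7.83% of the brightest probes of all genes were called in the green channel (3.82% upward and 4.01% downward) and 8.78% in the red (4.49% and 4.29%). The 2 that rose were Usp3 and Usp29 in both channels. None of the 27 proteasome genes was called in either channel. Their changes ran from -0.89 to 0.94 in the green and from -0.62 to 0.96 in the red on the log2 scale, with a median standard error of 0.23. The highest was Psmd3 (0.94 ± 0.44, adjusted p = 0.315, in the green and 0.96 ± 0.40, 0.230, in the red), and Psmd7 was the lowest (-0.89 ± 0.25, 0.082, and -0.62 ± 0.26, 0.224). Psma6 had changes of 0.73 in the green and 0.86 in the red channel, and Psmd8 had 0.67 in the green.

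The log2 signal of Usp3 in the green channel was 8.70, 8.49 and 9.11 at day 2, 9.90, 9.11 and 9.55 at day 3, then 10.68, 11.36 and 10.78 at day 4. Red values were 8.86, 8.68 and 9.21 at day 2, 10.32, 9.80 and 10.13 at day 3, then 10.45, 11.19 and 10.65 at day 4. Every day 4 sample lay above every day 2 sample in both channels. The rise from day 2 to day 4 was 4.52-fold in the green channel (2.18 ± 0.26, adjusted p = 0.0015) and 3.60-fold in the red (1.85 ± 0.24, adjusted p = 0.0014). In the green channel the step from day 3 to day 4 was called (1.42 ± 0.26, adjusted p = 0.029) and that from day 2 to day 3 was not (0.76 ± 0.26, 0.423). In the red channel neither step was called (1.17 ± 0.24, 0.055, and then 0.67 ± 0.24, 0.265). The other probe rose by 1.49 in the green and 1.33 in the red channel, both called.

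The log2 signal of Usp29 in the green channel was 7.12, 7.53 and 7.31 at day 2, 7.38, 7.60 and 7.79 at day 3, then 8.98, 9.10 and 9.04 at day 4. Red values were 7.22, 7.64 and 7.66 at day 2, 7.94, 8.96 and 8.69 at day 3, then 8.81, 9.11 and 9.05 at day 4. The channels overlapped at day 2 and day 4, and every red sample of day 3 lay above every green one. The rise from day 2 to day 4 was 3.29-fold in the green channel (1.72 ± 0.16, adjusted p = 3.03e-04) and 2.79-fold in the red (1.48 ± 0.26, adjusted p = 0.0077). With plain background subtraction the rises were 2.92 and 2.38 on the log2 scale, both called. The red rise was not called without replicate 2 (adjusted p = 0.056) or replicate 3 (0.142). The step from day 3 to day 4 was called in the green channel (1.45 ± 0.16, adjusted p = 0.0016) and not in the red (0.46 ± 0.26, adjusted p = 0.571). Over all 56 genes, 2 rose from day 3 to day 4 in the green channel, these being Usp3 and Usp29, where 3.12% of the brightest probes of all genes were called, and none was called in the red, where 2.41% were. From day 2 to day 3 none was called in either channel, where 0.912% and 1.27% were in the green and the red.

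**Figure D4:**
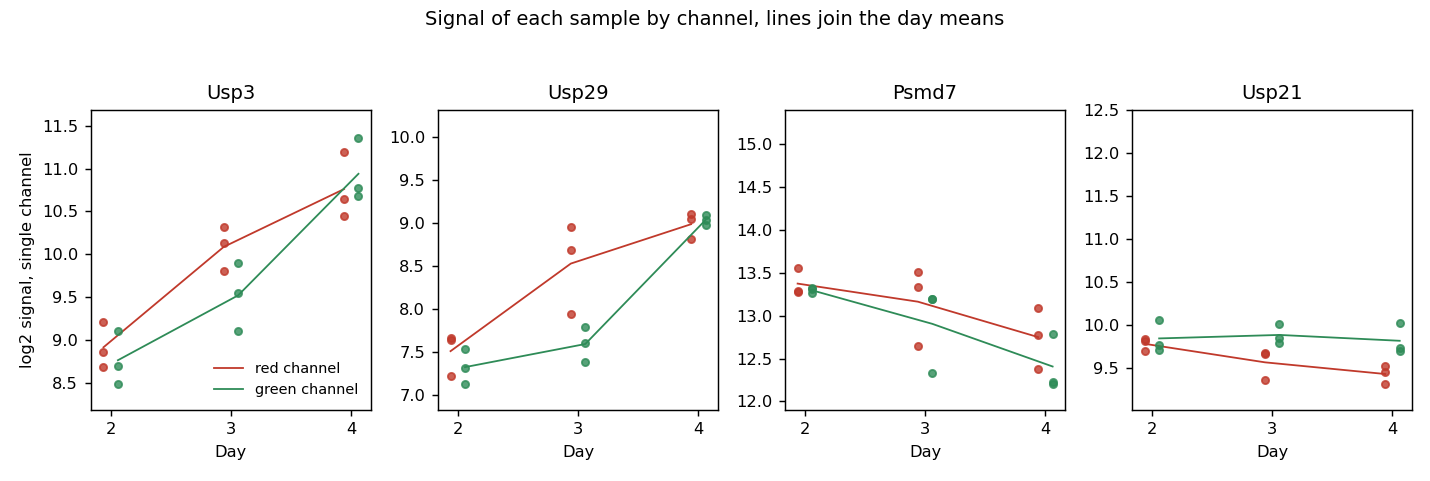
Log2 signal (vertical axis, a range of 3.5 in each panel) of Usp3, Usp29, Psmd7 and Usp21 in each sample of the red and green channels by day, with lines through the day means. Usp3 and Usp29 rise in both channels and the red lies above the green at day 3, whereas Usp21 lies lower in the red at day 3 and day 4.

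The other called level changes were declines. Ube3a fell by 0.89 ± 0.21 in the green channel (adjusted p = 0.040), from 9.51, 9.75 and 9.74 at day 2 to 8.79, 8.69 and 8.84 at day 4. These samples did not overlap, but the call was lost without any of the 3 replicates (adjusted p between 0.106 and 0.306) and 2 dimmer probes of Ube3a gave changes of 0.11 and 0.072, so that the mean over probes was -0.24 (adjusted p = 0.466). Usp2 had log2 signals of 7.84, 7.85 and 8.19 in the red channel at day 2 and 6.85, 7.13 and 7.37 at day 4, where it was not well above background on any array. It was at least 1.80-fold lower (adjusted p = 0.046), a bound set by its own day 4 signal, and the call was lost without any of the 3 replicates (adjusted p between 0.157 and 0.213) and with plain background subtraction (-2.18, adjusted p = 0.092). Level changes that did not pass included those of Ube1y1 (-0.98 in the green channel, adjusted p = 0.068, and -0.67 in the red, 0.081), Usp5 (-0.59 in the red), Usp25 (-0.61 in the green) and Usp16 (0.78 in the red, 0.083).

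Promoter sequences of the 3 deubiquitinases whose ratio changed between days are shown because Usp3 and Usp29 also rose together in both channels. RefSeq gave a promoter for 41 of the 56 genes (build GRCm38.p6), and the 250 bases before the start site were searched on both strands. The windows of Usp3 (chr9:66593116-66593365, minus strand), Usp29 (chr7:6730333-6730582, plus strand) and Usp16 (chr16:87454735-87454984, plus strand) are given from 5′ to 3′, with each CCAAT box in capitals.
Usp3: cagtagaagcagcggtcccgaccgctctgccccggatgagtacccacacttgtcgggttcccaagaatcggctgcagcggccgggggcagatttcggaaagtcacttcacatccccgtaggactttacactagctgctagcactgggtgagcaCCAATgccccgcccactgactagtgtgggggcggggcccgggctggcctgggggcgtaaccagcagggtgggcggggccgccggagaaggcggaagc
Usp29: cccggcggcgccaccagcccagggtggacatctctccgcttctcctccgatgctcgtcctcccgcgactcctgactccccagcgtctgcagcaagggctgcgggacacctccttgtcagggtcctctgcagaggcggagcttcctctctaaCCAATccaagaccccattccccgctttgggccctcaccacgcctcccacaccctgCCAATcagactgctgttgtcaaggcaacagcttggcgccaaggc
Usp16: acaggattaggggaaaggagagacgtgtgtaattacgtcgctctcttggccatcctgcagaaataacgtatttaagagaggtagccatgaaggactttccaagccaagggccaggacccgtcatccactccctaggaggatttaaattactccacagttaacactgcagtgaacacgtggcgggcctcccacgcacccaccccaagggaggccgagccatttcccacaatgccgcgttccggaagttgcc

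The CCAAT box occurred 1 time in the window of Usp3, 2 times in that of Usp29 and not in that of Usp16. It was found in 34.5% of 27025 promoters, in 9 of 21 of the proteasome genes and in 7 of 20 of the ubiquitin genes. The core of the antioxidant response element, TGACNNNGC, which proteasome genes are known to carry, was found in 10.1% of all promoters, in 4 of 21 of the proteasome genes (Psmb5, Psmb6, Psmd9 and Psmd12) and in 1 of 20 of the ubiquitin genes (Usp25). The palindrome bound by Mix-type homeodomain proteins, TAAT and ATTA with 3 bases between, was found in 0.47% of all promoters and in none of these 41 windows. The windows shown held neither of these last motifs, so no matches overlapped there. Matches describe letters in these windows and are not binding sites.

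Other genes of the pathway were counted from a list of 74, of which 46 were measured. None was higher and 1 lower at day 2, 5 were higher and 6 lower at day 3, and 5 were higher and 4 lower at day 4, with the background shares given above. Uchl1, a neuronal and germ cell deubiquitinase, had ratios of -1.44, -1.60 and -1.67 at day 3, then 0.17, 0.41 and 0.46 at day 4. It was 2.97-fold lower at day 3 (-1.57 ± 0.084, adjusted p = 9.95e-09) and higher at day 4 (0.34, adjusted p = 0.011), and its signal fell from day 2 to day 4 in both channels (log2 changes of -3.49 in the green and -2.83 in the red). Mdm2, the ligase of p53, was lower at day 3 (-0.67) and day 4 (-0.49), Cul4b, a ligase scaffold, was higher (0.31 and 0.44), and Isg15, a ubiquitin-like modifier, was lower at day 3 (-0.24) and higher at day 4 (0.35). Siah2, a ligase of the hypoxia response, was higher at day 3 (0.27, 0.39 and 0.41 on the arrays, adjusted p = 0.0081), and its signal rose 3.68-fold in the green and 3.41-fold in the red channel from day 2 to day 4. Fbxw7, a substrate receptor, was dim and lay in print block 21, and it was at least 1.63-fold lower at day 2 and at least 1.82-fold at day 3.

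The remaining calls of this list were small. Sumo3 (-0.44) and Fzr1 (-0.32) were lower at day 3, and Ubqln1 (0.34), Itch (0.27) and Ufd1l (0.26) were higher. At day 4 Anapc4 (0.31) and Sqstm1 (0.30) were higher, and Nedd4 (-0.38) and Huwe1 (-0.29) were lower. The fourth call lower at day 4, beside Mdm2, was Fbxw7, which was then dim in both channels and gives no fold. A further 27 genes carried an older name on the array and fit the naming rule only by their current symbol. Of these none was called at day 2, 1 was higher and 6 were lower at day 3, and 2 were higher and 1 was lower at day 4, where 10.4% and 12% of the brightest probes of all genes were higher and lower at day 3 and 10.3% and 9.98% at day 4. The 1 higher at day 3, an E1 gene, was dim in both channels and gives no fold. The 2 higher at day 4 were the cap subunits Psmc6 and Psmd6 (0.30 and 0.31), and Ube2t, an E2 of DNA repair, was lower at day 3 (-0.48) and day 4 (-0.37). Also lower at day 3 were the E2 genes Ube2k (-0.29) and Ube2g1 (-0.23) and the assembly chaperone Psmg2 (-0.26). The deubiquitinases Usp46 (-0.46) and Usp19 (-0.31, from a clone noted as giving no PCR product) were lower at day 3 as well.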

How the data were processed

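Embryoid body RNA of 18 samples was hybridised to 9 cDNA arrays of 17327 spots. It had been amplified linearly and coupled to a cyanine dye, as the labels' protocols state. Per the file headers, the authors' day tables give each spot a background-subtracted intensity in either channel, a signal-to-noise score and a flag. The authors' deposited tables also hold a fold, or ratio, and an ANOVA p-value per probe. For all 18 samples the value table matched the day tables' scaled channels within 1e-06, and its DOX samples were the red ones. The authors scaled those intensity values day by day, so they served as an alternative for ratios.

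R 4.3.3 and limma 3.58.1 were used. Spots with a flag of -75 or lower were dropped, normexp (offset 50) corrected the background, and loess normalized each array's log2 ratios. The 9 ratios were fitted with a mean per day and 6 residual degrees of freedom, with two-sided tests. Levels are single-channel log2 values after Aquantile normalization. Where a probe's signal-to-noise ratio stayed under 1.4 on all 3 arrays of a day, any fold is a bound. It sets the bright mean against the larger of the dim probe's own signal and the lowest signal past 1.4. The fit of the ratios was tested on simulated log2 ratios with known changes at day 3. Background correction, normalization, changes between days, levels and bounds were not simulated. By rule the text names members that passed the test with 1 sign on their 3 arrays, the 5 largest changes each way between days or of level, and each role by range; dimmer probes were added after their values were seen. The members and lists were chosen with earlier results of these data known. Whether replicate numbers paired samples across days was not settled. Same-numbered arrays of different days had r between -0.15 and 0.20 over 9 pairs, and the others between -0.24 and 0.21 over 18. A culture shared by both samples of an array would drop out of their ratio, so low values cannot show that pairing was absent. P-values rest on the spread between these replicates, pooled over the 3 days and drawn by limma toward that of all gene probes. The 3 arrays a day limit the precision. Alternatives changed the background correction, scaling, signal filter, replicates, blocks and choice of probe. Subtraction of print block medians was chosen after seeing the data. Values of single members withheld from this text are not reported here, though they stay in the counts and medians; they are not plotted.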

Additional observations from a re-analysis of the deposited data

Results flagged for a closer look

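The ratio of 3 deubiquitinases differed between days in the test of the change itself. The log2 ratio of Usp29 rose by 0.75 from day 2 to day 3 and changed by -0.99 from day 3 to day 4. That of Usp3 changed by -0.74 from day 3 to day 4, and that of Usp16 rose by 0.63 from day 2 to day 3. Over each step 2 of 56 genes were called, where 4.44% and 8.78% of the brightest probes of all genes were. The rises of Usp29 and Usp16 were not called without replicate 2. Groups of 3 arrays were not tested for single deviating arrays.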

How the results depend on the processing

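No called value changed sign under any alternative run. At day 2 no gene was called under any of them. At day 3 the count of proteasome genes went from 0 to 1 with the signal-to-noise filter and with print block medians subtracted. At day 4 it went from 1 to 0 with plain background subtraction, 2 with the authors' scaled values, 3 with the filter and 2 with print block medians subtracted. Psmd7 was not among the 2 called with print block medians subtracted. Without replicate 2 and with the mean over probes 1 was called at day 4, and it was not Psmd7. Ubiquitin genes at day 4 went from 1 to 5 with the filter, 3 with the mean over probes and 4 with print block medians subtracted. Changes from day 2 to day 3 went from 2 to 1 with plain subtraction and with the authors' scaled values, and from day 2 to day 4 from 0 to 1 with the filter. Leaving out the arrays of 1 replicate number on all days gave 3 to 7 ubiquitin genes at day 3 (3 without replicate 2), 0 to 3 at day 4 (0 without replicate 3, 3 without replicate 1), 0 to 2 proteasome genes at day 4 (0 without replicate 3), 0 to 2 changes from day 2 to day 3 (0 without replicate 2) and 1 to 2 level changes in the red channel (1 without replicate 2 or 3). Of 17 single-gene calls, 2, 8 and 7 were lost without replicates 1, 2 and 3. The causes were not tested, beyond fewer arrays in the last case.

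With no replicate block, that is, single channels fitted without the array, 0 ubiquitin genes were called at day 3 and 0 at day 4, 0 proteasome genes at day 4, and 0 changes from day 2 to day 3 and 0 from day 3 to day 4. All 11 single-gene ratio calls were lost, and over all probes 77, 151 and 155 were called at day 2, day 3 and day 4 in place of 503, 3070 and 2656. With the replicate number as a block across days, a pairing that was not settled, 2 of 17 calls were lost, Ube3a in the green and Usp2 in the red channel. Over all probes, plain subtraction called 187, 1627 and 1726, and the authors' scaled values called 126 at day 2. The share of calls that were higher at day 2 was 41.9%, against 74.6% with the authors' scaled values and 14.3% without the block, and at day 3 it was 45.4% against 28.5% without the block. Scaled values and median centring were not run for levels, and quantile normalization was run for levels alone. Dim probes give bounds only.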
